A study of Arabidopsis thaliana with 22 samples.

Results

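HRS1 and the HHO genes form a small family of Arabidopsis thaliana transcription factors of the GARP type, and their transcripts were followed here in sorted root cells given nitrate or a control salt. The family was taken as 7 loci, AT1G13300 (HRS1), AT3G25790 (HHO1), AT1G68670 (HHO2), AT1G25550 (HHO3), AT2G03500 (HHO4), AT4G37180 (HHO5) and AT1G49560 (HHO6), and every transcript model on the array whose locus is one of them was kept. All 7 loci were on the array, out of 27143 loci, and they gave 8 of its 31524 transcript models. HHO5 had 2 models, called model 1 and model 2 below after the number that ends their identifiers, and each other locus had 1.

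These proteins are repressors of transcription, and several of them are also known as NIGT1. In roots they belong to the early nitrate response: nitrate activates NLP transcription factors, which switch on NIGT1 genes, and the NIGT1 proteins in turn repress genes of high-affinity nitrate uptake, such as NRT2.1, and genes of phosphate sensing, such as SPX1. HRS1 owes its name to primary roots that shorten too readily when phosphate is low, and the family is known for joining the nitrate and phosphate signals of the root.

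Roots came from Col0, the wild type, and from the mutant atscl26 (atscl26-2 in the deposited averages), which is affected in SCL26, a GRAS transcription factor. Seedlings of all groups grew on low nitrogen (0.1 mM KNO3, with 30 mM sucrose) and carried a GFP reporter that marks either epidermis or cortex. Treatment lasted 2 h. Protoplasts were then made from the roots, the GFP-marked ones were collected by fluorescence-activated sorting, and RNA from them was amplified for one-colour arrays. The 8 groups are Col0 epidermis KCl, Col0 epidermis KNO3, Col0 cortex KCl, Col0 cortex KNO3 and the same 4 for atscl26. Each has n = 3 arrays, called biological replicates in the titles, apart from atscl26 epidermis KCl and Col0 cortex KNO3 with n = 2. The nitrate treatment was 5 mM KNO3. The control is 5 mM KCl by the titles and source names, and fresh plates with 0.1 mM KNO3 by the treatment protocol. The age is 12 days by the source names and 9 days by the growth protocol, and neither difference could be settled. The reporter lines are not named and the kind of mutation is not given in the sources used here. Protoplast preparation and sorting lie between the treatment and the RNA in every group, and in sorted bulk RNA a change in which cells were collected and a change in transcript per cell cannot be told apart.

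Values are log2 expression values, so a difference of 1 is a 2-fold difference. Array medians lay between 8.78 and 9.04. SCL26, the mutated gene, was measured at 7.0 to 11.26 on the 11 arrays with a Col0 label and at 7.66 to 9.11 on the 11 with an atscl26 label, with medians of 7.94 and 8.30. The ranges overlap, so the level of SCL26 does not check the genotype labels, which are used as given. Of the 22 arrays, 4 had a median correlation with the other arrays of 0.562 to 0.800, against 0.852 to 0.921 for the other 18. These 4, called low-correlation arrays below, are replicate 2 of Col0 epidermis KCl, replicate 3 of Col0 epidermis KNO3 and replicate 1 of both cortex KNO3 groups. Their values were also less spread, with an SD over all models of 1.99 to 2.24 against 2.31 to 2.51. A score, the mean of 15 epidermis markers less the mean of 4 cortex markers, was closer to the opposite cell type on 8 arrays. These are replicates 1 and 2 of Col0 epidermis KCl, replicates 2 and 3 of atscl26 epidermis KNO3, replicate 1 of Col0 cortex KNO3, replicate 3 of atscl26 cortex KCl and replicates 2 and 3 of atscl26 cortex KNO3. The mean level of the 9 endodermis markers reached 11.39 on a Col0 epidermis KCl array and that of the 8 stele markers reached 9.22 on another, against lowest values of 7.06 and 6.86 over all arrays, and the 4 root cap markers averaged 6.94 to 9.90. The part of these array differences in the results was not tested.

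HRS1 was bright on nearly all arrays, above 85% of all models on 21 of 22. In Col0 epidermis its level was 13.61, 12.65 and 12.59 with KCl and 12.66, 13.65 and 11.98 with KNO3. In Col0 cortex it was 13.46, 13.14 and 13.15 with KCl and 13.38 and 12.82 with KNO3. Both pairs of groups overlapped, and no Col0 array stood apart. In atscl26 epidermis HRS1 was 10.48 and 13.41 with KCl and 12.25, 13.25 and 13.64 with KNO3. In atscl26 cortex it was 13.00, 13.92 and 13.13 with KCl and 12.19, 13.05 and 12.97 with KNO3. The value of 10.48 was the lowest of the 22 arrays and the next was 11.98. By group mean the order ran from 13.35 ± 0.50 (SD, n = 3) in atscl26 cortex KCl to 11.94 ± 2.07 (SD, n = 2) in atscl26 epidermis KCl, and every neighbouring pair of groups in that order overlapped.

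HHO1, a close homologue of HRS1 and like it a nitrate-induced repressor, was as variable within groups as between them. In Col0 epidermis its level was 13.02, 11.34 and 12.75 with KCl and 12.38, 12.65 and 12.15 with KNO3. In Col0 cortex it was 13.37, 12.22 and 13.33 with KCl and 11.41 and 12.66 with KNO3. The control and nitrate arrays overlapped in both cell types. In atscl26 the epidermis gave 12.31 and 13.15 with KCl and 10.83, 13.32 and 12.95 with KNO3. The atscl26 cortex gave 12.92, 12.59 and 11.96 with KCl and 13.60, 12.76 and 11.42 with KNO3. The lowest and the highest HHO1 level of the whole set, 10.83 and 13.60, were thus both nitrate-treated atscl26 arrays. Group means ran from 12.97 ± 0.65 (SD, n = 3) in Col0 cortex KCl to 12.03 ± 0.88 (SD, n = 2) in Col0 cortex KNO3, again with overlap between all neighbours.

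HHO2, a further NIGT1 repressor, had the only group in the family without overlap with the next group in the order of means. That group, Col0 cortex KNO3, still overlapped Col0 epidermis KCl (up to 12.17) and atscl26 epidermis KNO3 (up to 12.36). The share of all models with such a group was not counted. In Col0 cortex its level was 11.11, 11.99 and 11.58 with KCl and 12.79 and 12.14 with KNO3. The 2 nitrate arrays lay above all 3 controls, and they also lay above the 3 atscl26 cortex KNO3 arrays, at 11.96, 11.44 and 11.79. Of all models 17.3% and 15.4% had groups without overlap in these comparisons. The array at 12.79 is a low-correlation array whose marker score was nearer epidermis, and the other one, at 12.14, also lay above the highest control. In Col0 epidermis HHO2 was 12.17, 10.26 and 11.99 with KCl and 11.12, 11.77 and 11.28 with KNO3. In atscl26 epidermis it was 11.63 and 11.51 with KCl and 10.81, 12.36 and 11.56 with KNO3. Neither epidermis comparison separated the treatments. In atscl26 cortex KCl it was 11.99, 8.44 and 11.85, and the value of 8.44 gave that group the lowest mean, 10.76 ± 2.01 (SD, n = 3).

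HHO3, also a NIGT1 repressor, varied little except on the low-correlation arrays. In Col0 epidermis it was 12.70, 10.35 and 13.12 with KCl and 12.80, 13.39 and 12.09 with KNO3, and in Col0 cortex 12.96, 12.55 and 12.00 with KCl and 10.76 and 13.02 with KNO3. In atscl26 epidermis it was 12.67 and 13.14 with KCl and 12.58, 12.75 and 12.40 with KNO3, and in atscl26 cortex 12.47, 12.21 and 12.78 with KCl and 11.42, 12.40 and 12.02 with KNO3. The 3 lowest values, 10.35, 10.76 and 11.42, all came from low-correlation arrays, and the 18 other arrays lay between 12.00 and 13.39.

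HHO4, also known as EFM, a MYB-type protein named for early flowering of its mutant, was near the floor of the arrays. Its percentile among all models of an array was 10.8 to 21.3 on 20 of the 22 arrays. The 18 arrays that correlated well held it between 6.11 and 6.86, with a median of 6.44. The 4 low-correlation arrays gave 9.37, 7.07, 7.69 and 7.25, all above every other array. Of the 7881 models with the lowest means, 20.2% did the same, so this is common among dim models. Its highest group mean, 7.35 ± 1.75 (SD, n = 3) in Col0 epidermis KCl, rests on the array at 9.37, without which the 2 remaining arrays were 6.38 and 6.28.

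HHO5, whose protein is also called UIF1 because it binds the floral regulator ULTRAPETALA1, was measured by 2 models. Model 1 in Col0 epidermis was 11.56, 9.22 and 9.10 with KCl and 7.87, 8.65 and 9.93 with KNO3. In Col0 cortex it was 10.05, 9.85 and 8.65 with KCl and 9.90 and 9.70 with KNO3. Nitrate-treated epidermis held 2 of its 3 lowest Col0 values, but the groups overlapped. Model 1 in atscl26 epidermis was 10.98 and 9.95 with KCl and 10.21, 9.83 and 10.69 with KNO3. In atscl26 cortex it was 9.68, 12.23 and 10.46 with KCl and 8.65, 11.02 and 11.06 with KNO3. All 4 atscl26 group means of model 1, from 10.24 to 10.79, were above all 4 Col0 group means, from 8.82 to 9.96, while single arrays overlapped.

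Model 2 of HHO5 followed model 1 on most arrays but not on the low-correlation ones. In Col0 epidermis it was 10.41, 11.87 and 9.08 with KCl and 8.71, 8.56 and 10.53 with KNO3, and in Col0 cortex 9.91, 10.18 and 9.65 with KCl and 11.03 and 9.84 with KNO3. In atscl26 epidermis it was 10.37 and 9.35 with KCl and 10.05, 9.46 and 10.16 with KNO3, and in atscl26 cortex 9.82, 11.80 and 10.59 with KCl and 10.48, 11.14 and 10.33 with KNO3. The 2 models had a Pearson r of 0.58 over the 22 arrays and of 0.89 over the 18 without the low-correlation arrays. Replicate 2 of atscl26 cortex KCl, the array with the low HHO2 value of 8.44, had the highest model 1 value, 12.23, and the second highest model 2 value, 11.80.

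Over the 22 arrays HHO6 was the most variable member, with an SD of 1.27 against 0.71 to 1.05 for the other 7 models. In Col0 epidermis it was 9.35, 7.80 and 9.00 with KCl and 9.98, 8.35 and 7.78 with KNO3, and in Col0 cortex 10.81, 8.60 and 8.24 with KCl and 12.03 and 7.80 with KNO3. In atscl26 epidermis it was 10.07 and 7.98 with KCl and 8.73, 9.43 and 8.69 with KNO3, and in atscl26 cortex 10.29, 10.21 and 8.07 with KCl and 6.33, 7.87 and 9.37 with KNO3. Its highest and its lowest value, 12.03 and 6.33, were both replicate 1 of a cortex KNO3 group, and both are low-correlation arrays. Over the 18 other arrays HHO6 ranged from 7.80 to 10.81, less widely than HHO5 model 1, at 7.87 to 12.23. The ranking of HHO6 as most variable thus holds for all 22 arrays only.

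**Figure D1:**
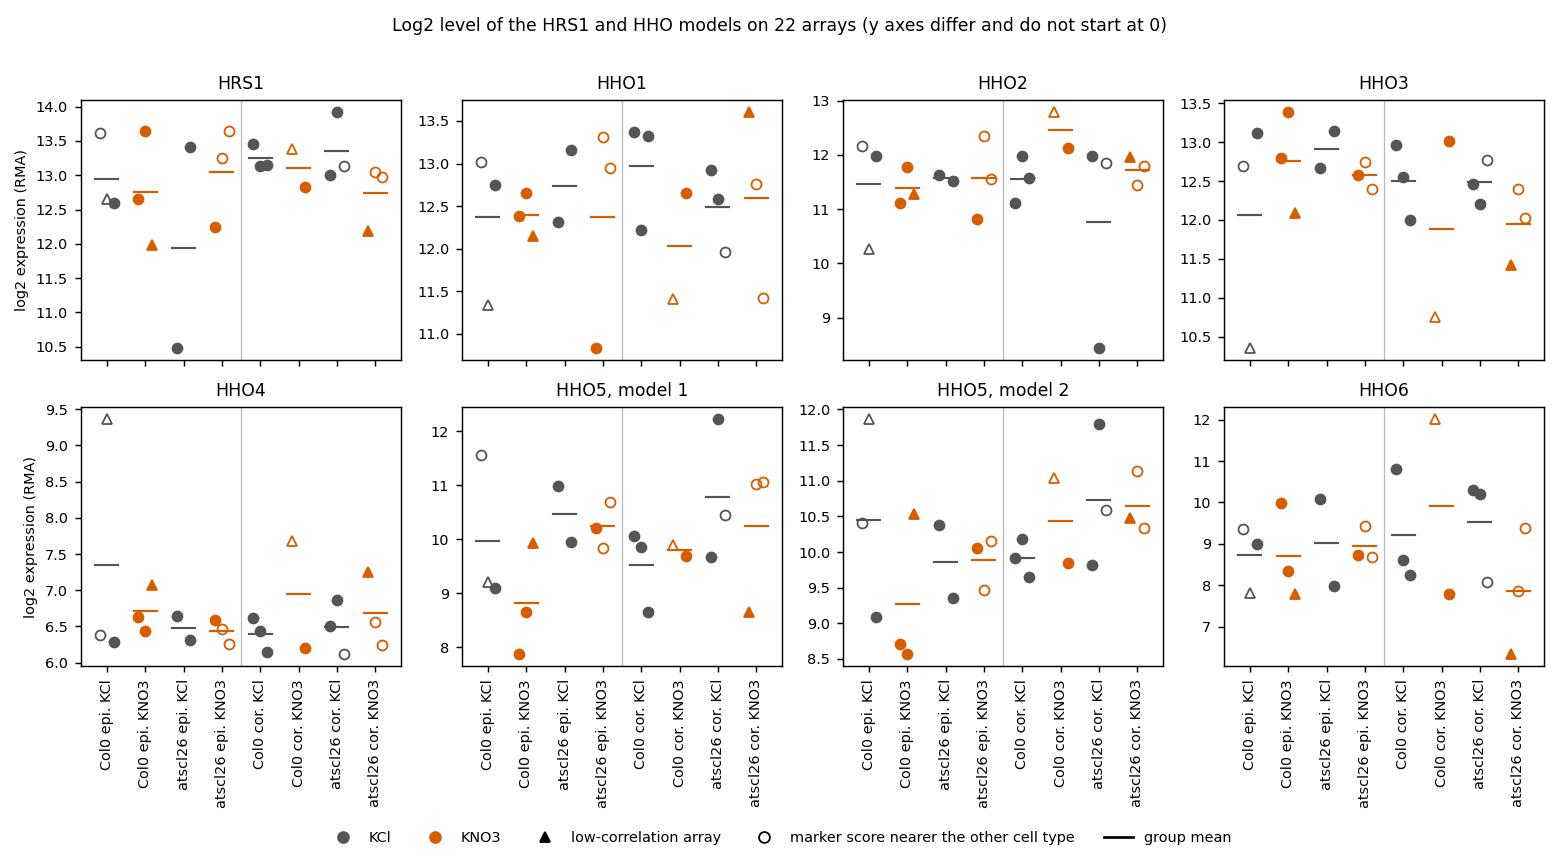
Log2 level (y axis, RMA) of the 8 transcript models of HRS1 and the HHO genes on all 22 arrays, by group (x axis), with 1 panel per model. Grey is KCl and orange is KNO3, triangles are the low-correlation arrays, open symbols are arrays with a marker score nearer the other cell type, and lines are group means. The single values that stand out are HRS1 at 10.48, HHO2 at 8.44, HHO4 at 9.37, and HHO6 at 12.03 and 6.33.

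The first comparison asks whether 2 h of nitrate moved the family in each cell type of each genotype. It moved no member past the threshold. In limma, with Benjamini-Hochberg adjustment over the 31524 models, 0 of the 8 models had an adjusted p under 0.05 in any of the 4 settings, where 0% of all models did. At an unadjusted p under 0.05 the family had 0 of 8 models in each setting, against 5.43% of all models in Col0 epidermis, 5.08% in Col0 cortex, 3.24% in atscl26 epidermis and 2.72% in atscl26 cortex.

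HRS1 differed by -0.19 ± 0.63 (SE) between KNO3 and KCl in Col0 epidermis, by -0.15 ± 0.70 in Col0 cortex, by 1.1 ± 0.70 in atscl26 epidermis and by -0.61 ± 0.63 in atscl26 cortex. The value of 1.1 had an adjusted p of 1.0 (limma) and rests on the control array at 10.48: without that array it was -0.36. The matching values of HHO1 were 0.03, -0.94, -0.37 and 0.11, with SE of 0.68 to 0.76. In atscl26 epidermis HHO1 was -1.90 without the 8 arrays whose marker score was nearer the other cell type. That set leaves only replicate 1 in atscl26 epidermis KNO3, which had the lowest HHO1 value of all arrays, 10.83. With all arrays HRS1 and HHO1 did not share a direction in Col0 epidermis, atscl26 epidermis or atscl26 cortex, and the differences were within the error.

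HHO2 differed by 0.91 ± 0.82 in Col0 cortex (adjusted p = 0.896, limma) and by 0.97 ± 0.74 in atscl26 cortex (adjusted p = 1.0, limma), against -0.08 ± 0.74 and 0.01 ± 0.82 in the epidermis of the 2 genotypes. Its Col0 cortex groups did not overlap, as was the case for 17.3% of all models in that comparison of 2 arrays with 3. The atscl26 cortex value rests on the control array at 8.44, and without it the difference was -0.19. HHO3 went the other way in Col0 cortex and atscl26 cortex, by -0.61 ± 0.72 and -0.54 ± 0.65, and differed by 0.70 ± 0.65 and -0.33 ± 0.72 in the epidermis of Col0 and atscl26. Without the 4 low-correlation arrays the HHO3 difference in Col0 cortex turned to 0.52, with only replicate 2 left in Col0 cortex KNO3.

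HHO4 differed by -0.63, 0.54, -0.05 and 0.19 in the order Col0 epidermis, Col0 cortex, atscl26 epidermis and atscl26 cortex, and without the low-correlation arrays by 0.20, -0.20, -0.05 and -0.09. HHO5 had the largest differences in Col0 epidermis, -1.14 ± 0.81 for model 1 and -1.19 ± 0.68 for model 2, with 95% confidence intervals of -2.84 to 0.56 and -2.62 to 0.24 and adjusted p of 0.961 and 0.923 (limma). Without the low-correlation arrays these were -2.07 ± 0.87 and -1.11 ± 0.61. They were -0.28 and 0.18 without the arrays whose marker score was nearer the other cell type, which leaves only replicate 3 in Col0 epidermis KCl. The HHO5 differences in the other 3 settings lay between -0.54 and 0.52. HHO6 differed by -1.67 ± 1.05 in atscl26 cortex (adjusted p = 1.0, limma) and by -0.02, 0.70 and -0.08 in Col0 epidermis, Col0 cortex and atscl26 epidermis. The value in atscl26 cortex was -0.91 ± 0.92 without the 4 low-correlation arrays, and between -2.43 and -0.91 with any single array left out. Without the 8 arrays whose marker score was nearer the other cell type it was -3.92. That set leaves 1 array in atscl26 cortex KNO3, replicate 1, a low-correlation array with the lowest HHO6 value, 6.33. On the same lone array, at 8.65, HHO5 model 1 differed by -2.30 in atscl26 cortex.

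None of the 8 models had the same direction in all 4 settings. The number of models whose groups did not overlap was 0 of 8 in Col0 epidermis, atscl26 epidermis and atscl26 cortex, against 5.23%, 22.2% and 9.41% of all models. The family median difference was -0.14, 0.40, -0.06 and -0.31 in the 4 settings in the order above, and the median of all models was -0.05, 0.14, -0.07 and 0.06. The design leaves these values wide, with an SE of 0.63 to 1.17. Of the 32 intervals of a member in a setting, 24 hold a 2-fold increase (1 on the log2 scale) and 27 hold a 2-fold decrease. In those a change of that size was not excluded. The other intervals, 8 for an increase and 5 for a decrease, leave it out. Among them, the interval of HHO1 in Col0 cortex ran from -2.53 to 0.66 and that of HRS1 in atscl26 cortex from -1.93 to 0.71.

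**Figure D2:**
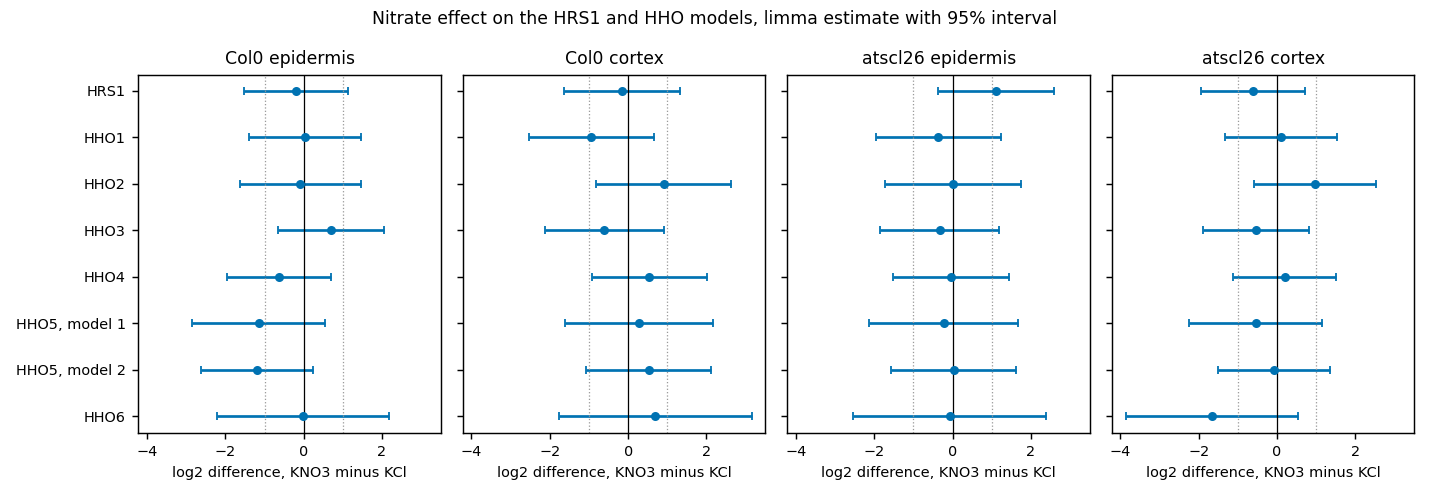
Nitrate effect (x axis, log2 difference, KNO3 minus KCl) on each of the 8 models in the 4 settings, with limma's 95% confidence interval. Dotted lines mark a 2-fold change either way, and all 32 intervals cross 0.

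Averaged over genotypes and cell types, which joins the 4 settings and narrows the error, the nitrate effect was small in HRS1, at 0.04 ± 0.33, with an interval of -0.66 to 0.74. It was -0.29 ± 0.36 in HHO1, 0.45 ± 0.39 in HHO2, -0.20 ± 0.34 in HHO3 and 0.01 ± 0.33 in HHO4. It was -0.41 ± 0.43 and -0.18 ± 0.36 in the HHO5 models and -0.27 ± 0.55 in HHO6. Without the 8 arrays nearer the other cell type HHO6 was -1.48. In that set each of the 4 nitrate differences has a lone array on 1 side. In atscl26 cortex KNO3 it is the low-correlation array at 6.33. With all arrays the 8 adjusted p were 1.0 (limma), 0 of 8 models had an adjusted or an unadjusted p under 0.05, and 0% and 2.33% of all models did. Here the interval of 1 model, HHO2, holds a 2-fold increase (its upper end is 1.27), and those of HHO1, HHO5 model 1 and HHO6 hold a 2-fold decrease. For every model but HHO2 a mean nitrate increase of 2-fold lies outside the interval. The upper ends are 0.74 in HRS1, 0.46 in HHO1, 0.53 in HHO3 and 0.71 in HHO4. They are 0.49 and 0.58 in HHO5 models 1 and 2 and 0.90 in HHO6.

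The second comparison asks whether atscl26 changed the family. The largest difference was that of HHO5 model 1, which averaged 10.44 over the atscl26 groups and 9.52 over the Col0 groups, a difference of 0.91 ± 0.43 with an interval of 0.01 to 1.81. Its unadjusted p was 0.0473 and its adjusted p 0.806 in limma, so it did not pass. It was higher in atscl26 in each of the 4 pairs of groups. The differences were 0.51 ± 0.90 (KCl) and 1.42 ± 0.81 (KNO3) in epidermis and 1.27 ± 0.81 (KCl) and 0.45 ± 0.90 (KNO3) in cortex. This model was singled out as the largest of the 8. The share of all models with 1 direction in all 4 pairs was not counted. Leaving out any single array kept the average between 0.73 and 1.11, and it was 1.18 ± 0.43 without the low-correlation arrays (adjusted p = 0.601, limma) and 0.79 ± 0.57 without the 8 arrays nearer the other cell type (adjusted p = 0.729, limma). Its unadjusted p was not under 0.05 without those 8 arrays, after quantile normalization, with the trended robust prior or with the replicate block. Model 2 of the same gene averaged 0.27 ± 0.36 with all arrays and 0.77 ± 0.31 without the low-correlation ones (adjusted p = 0.832 and 0.641, limma). It did not keep 1 direction over the pairs. In epidermis with KCl model 2 was lower in atscl26 (-0.59 ± 0.76), and with KNO3 it was higher (0.62 ± 0.68). Its cortex differences were 0.82 ± 0.68 (KCl) and 0.21 ± 0.76 (KNO3).

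The other members differed between genotypes by -0.33 to 0.18 on average. HRS1 was -0.24 ± 0.33, HHO1 0.10 ± 0.36, HHO2 -0.31 ± 0.39, HHO3 0.18 ± 0.34, HHO4 -0.33 ± 0.33 and HHO6 -0.30 ± 0.55. In this average 1 of 8 models had an unadjusted p under 0.05, against 4.84% of all models, and 0 of 8 passed after adjustment, against 0%. In single settings HHO6 had the largest difference, -2.06 ± 1.17 in cortex KNO3 (adjusted p = 0.904, limma), between groups that hold its highest and its lowest array. Without the 4 low-correlation arrays, which include both, it was 0.82.

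In single settings 0 of 8 models had an adjusted p under 0.05 between genotypes, against 0% of all models in each. At an unadjusted p under 0.05 the count was also 0 of 8, against 4.51% (KCl) and 5.18% (KNO3) of all models in epidermis and 1.3% (KCl) and 6.15% (KNO3) in cortex. In cortex KNO3 the HHO2 groups did not overlap, with atscl26 lower, and 15.4% of all models had groups without overlap there. The HHO2 difference was -0.73 ± 0.82 (adjusted p = 0.999, limma). No member had separate groups in epidermis with KCl or KNO3, against 12.3% and 16.6% of all models, or in cortex with KCl, against 8.1%.

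The third comparison sets epidermis against cortex. The averaged difference was -0.43 ± 0.33 in HRS1, -0.06 ± 0.36 in HHO1, -0.13 ± 0.39 in HHO2, 0.37 ± 0.34 in HHO3 and 0.11 ± 0.33 in HHO4. It was -0.22 ± 0.43 and -0.57 ± 0.36 in HHO5 models 1 and 2 and -0.28 ± 0.55 in HHO6. No family model passed in limma, with 0.901 as the smallest adjusted p, and 0 of 8 had an unadjusted p under 0.05. Of all models 0.00317% passed, which is 1 model (AT5G18150, 2.06 ± 0.26), and 6% had an unadjusted p under 0.05. Without the 8 arrays nearer the other cell type HHO1 was -0.82. That set leaves a lone array in Col0 epidermis KCl and in each KNO3 group but Col0 epidermis KNO3. The sign of the HRS1, HHO3 and both HHO5 values stayed the same whichever single array was left out.

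In single settings 0 of 8 models had an adjusted p under 0.05 between cell types, against 0% of all models. The count at an unadjusted p under 0.05 was 0 of 8 as well, against 5.13% of all models in Col0 KCl, 7.85% in Col0 KNO3, 3.41% in atscl26 KCl and 3.7% in atscl26 KNO3. HRS1 differed by -1.41 ± 0.70 in atscl26 KCl (adjusted p = 1.0, limma), which again rests on the array at 10.48: without it the difference was 0.06. In atscl26 KNO3 the groups of HHO3 (epidermis higher, 0.63 ± 0.65) and of HHO5 model 2 (epidermis lower, -0.76 ± 0.68) did not overlap, in a comparison where 16.9% of all models did not. The 6 arrays of this comparison include 4 whose marker score was nearer the other cell type. In Col0 KNO3 HHO2 was lower in epidermis without overlap, by -1.07 ± 0.82, where 15.9% of all models had separate groups. No member had separate groups in Col0 KCl or in atscl26 KCl, against 7.83% and 21.1%.

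**Figure D3:**
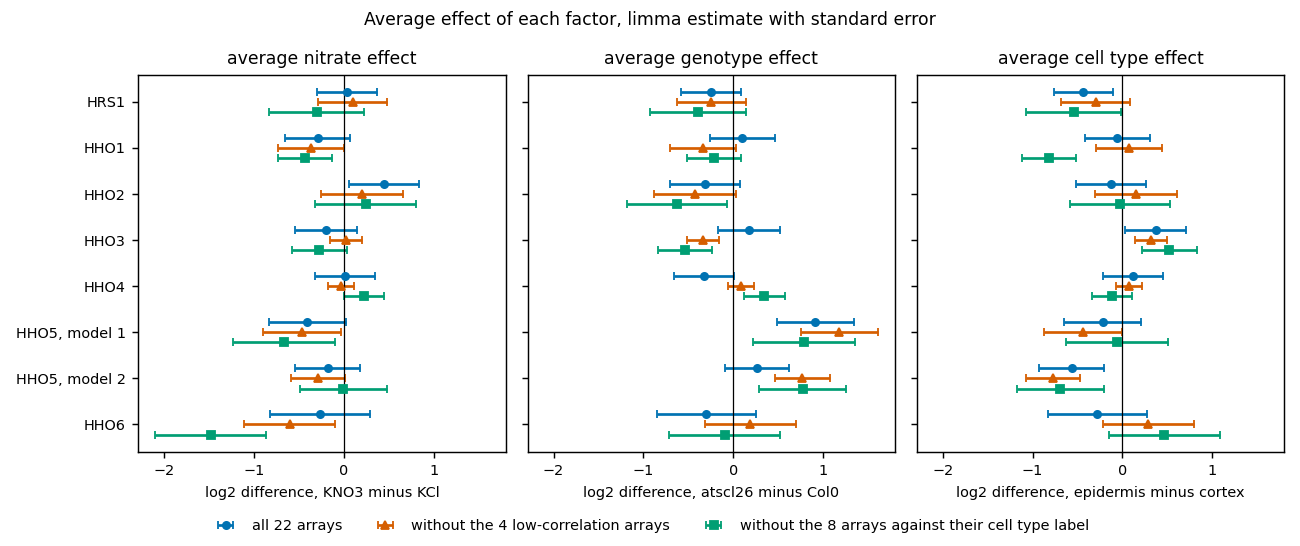
Average nitrate, genotype and cell type effect (x axes, log2 difference ± SE, limma) on each model with all 22 arrays, without the 4 low-correlation arrays and without the 8 arrays whose marker score was nearer the other cell type. HHO5 model 1 stays above 0 in the genotype panel in all 3 sets (0.91, 1.18 and 0.79), while HHO1, HHO3, HHO4 and HHO6 change side there.

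Whether the nitrate effect itself depended on genotype or cell type was tested with interaction terms. The largest genotype by nitrate term was that of HHO6, -1.21 ± 1.11, and the largest cell type by nitrate terms were those of HHO2, -0.98 ± 0.78, and HRS1, 0.84 ± 0.67. The largest genotype by cell type term was again that of HHO6, 1.15 ± 1.11. None of the 24 terms had an adjusted or an unadjusted p under 0.05 in limma, against 0% of all models after adjustment and 2.45%, 4.76% and 3.41% before it. A difference between genotypes or cell types in the response of a member to nitrate was therefore not detected, and most of the intervals, with errors of 0.67 to 1.11, hold a 2-fold term either way.

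Across the 22 arrays most members did not follow each other. Beyond the pair of HHO5 models, the largest correlations were those of HHO3 with HHO4 (r = -0.82) and with HHO5 model 2 (r = -0.70). The first of these was -0.04 over the 18 arrays that correlated well, so it lies in the 4 low-correlation arrays, while the second was -0.60. Larger in size over those 18 arrays were HHO2 with HHO4 (r = -0.654) and HHO4 with HHO6 (r = 0.645). Over all 22 arrays these were -0.30 and -0.02. On the 18 arrays HHO4 spans only 6.11 to 6.86, near the floor. The array with HHO4 at 6.86 is also the one with HHO2 at 8.44. HRS1 and HHO1 had r = 0.24 over 22 arrays and 0.38 over 18. These are descriptions over arrays that share groups and quality, not tests.

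**Figure D4:**
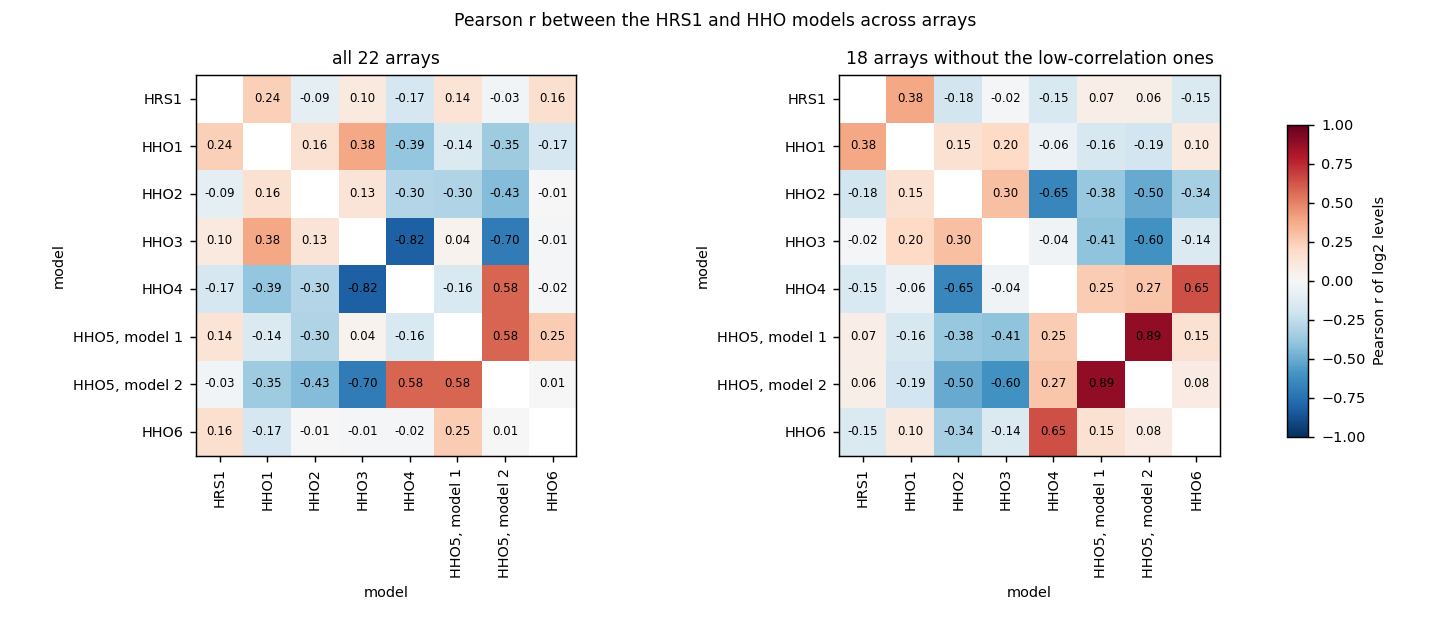
Pearson r between the log2 levels of each pair of family models over all 22 arrays (left) and over the 18 arrays without the low-correlation ones (right). The negative value of HHO3 with HHO4 goes from -0.82 to -0.04, and that of the HHO5 models rises from 0.58 to 0.89.

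**Figure D5:**
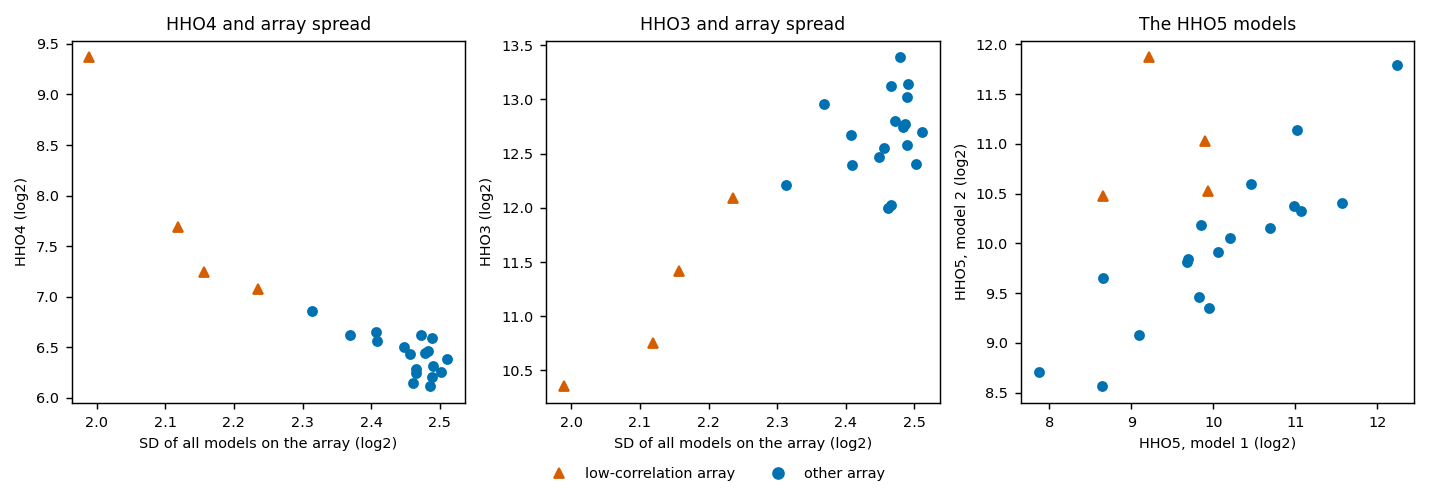
Log2 level of HHO4 (left) and of HHO3 (middle) against the SD of all models on the same array (x axis, log2), and HHO5 model 2 against HHO5 model 1 (right), with 1 point per array. Triangles are the 4 low-correlation arrays, where HHO4 is 7.07 to 9.37 and HHO3 is 10.35 to 12.09.

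The models of other loci whose pattern over the 22 arrays was most like that of a member were ranked by Pearson r. For HRS1 they were TPS9 (r = 0.85), AT5G44720 (0.85) and CBL3 (0.82), with Spearman's rho of 0.62 to 0.71. The values of r without the low-correlation arrays were 0.87, 0.89 and 0.83, and these still include the single HRS1 value of 10.48. For HHO1 they were AT3G13190 (0.78), AT1G07650 (0.76) and RIP2 (0.75). For HHO2 they were AT1G26550 (0.83), ARD1 (0.83) and ACO3 (0.82), with Spearman's rho of 0.30 to 0.35. The 22 arrays include the single HHO2 value of 8.44. For HHO3 they were PIP5K6, AT5G13590 and AT3G12620 (0.90 to 0.91), and for HHO4 AT3G59590, AT1G67865 and CRK22 (0.98 to 0.99). Over the 18 well correlated arrays these were 0.50 to 0.81 for HHO3 and 0.80 to 0.86 for HHO4. HHO5 model 1 was most like AT5G37750 (0.78), TRM21 and WAVH1 (both 0.75), and model 2 most like AT3G04550 (0.83), AT1G62190 and TPS1 (both 0.82). HHO6 was most like TIM23-2 (0.80), AT1G22700 (0.76) and AT1G72720 (0.74). The highest of so many correlations is high by selection, and these values are descriptions.

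Genes around the family in the nitrate and phosphate pathways were read in the same fits, and none of them passed in the average nitrate effect or in any single setting. Among 15 models of 12 upstream regulators, 7 were higher with nitrate on average, where 53.9% of all models were higher. The median of these regulators was -0.03, where the median of all models was 0.02. CPK32, a calcium-dependent kinase that acts on NLP factors, differed by 0.79 ± 0.44, and NRT1.1, the dual-affinity nitrate transporter and sensor, by -0.71 ± 0.47. Among 5 genes of high-affinity nitrate uptake, 3 were higher, with a median of 0.01. NRT2.1, the main high-affinity nitrate transporter, differed by -0.09 ± 0.50 and its relative NRT2.4 by 0.29 ± 0.54.

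On the phosphate side 5 of 6 models were higher, against 53.9% of all models, with a median of 0.04. The model with the smallest p of this list, and named for that reason, was SPX1, a phosphate sensor that restrains PHR1. It differed by 1.19 ± 0.46 on average (unadjusted p = 0.020, adjusted p = 1.0, limma). It was 2.91 ± 0.98 in atscl26 epidermis, 0.93 ± 0.88 in atscl26 cortex, 0.47 ± 0.88 in Col0 epidermis and 0.44 ± 0.98 in Col0 cortex. PHO2, which turns over phosphate transporters, differed by 0.06 ± 0.37.

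Of 5 models of other nitrate-induced repressors, 2 were higher, with a median of -0.20. LBD39, which represses nitrate uptake and assimilation genes, differed by -0.82 ± 0.42, and BT2, a negative regulator of nitrate use, by -0.64 ± 0.46. Of 11 models of 7 nitrate assimilation genes, 2 were higher, with a median of -0.34. RFNR2, a root ferredoxin reductase, differed by -0.63 ± 0.45, and the nitrate reductase gene NIA2 by -0.34 ± 0.24. By setting, 8 of 11 assimilation models were higher with nitrate in Col0 epidermis, 9 of 11 in atscl26 epidermis and 0 of 11 in either cortex setting, with medians of 0.66, 0.69, -1.80 in Col0 cortex and -1.25 in atscl26 cortex. The medians of all models in these settings were -0.05, -0.07, 0.14 and 0.06. No assimilation model had an adjusted p under 0.05 (limma), models of 1 gene are not independent, and neither the list nor the difference between settings was tested. Cell type marker levels also went up or down with KNO3, though no marker model had an adjusted p under 0.05 (limma). In Col0 epidermis 0 of 4 cortex models were higher (median -2.0), 0 of 10 endodermis (-1.08) and 3 of 9 root hair models (-0.77). The matching values were 4 of 4 (2.28), 10 of 10 (1.22) and 2 of 9 (-0.26) in atscl26 epidermis. They were 1 of 4 (-0.26), 8 of 10 (1.41) and 9 of 9 (0.59) in Col0 cortex. In atscl26 cortex they were 2 of 4 (-0.20), 5 of 10 (0.01) and 8 of 9 (0.78). In the same order of settings, 3, 0, 4 and 5 of 6 non-hair epidermis models were higher. So were 1, 3, 9 and 8 of 10 stele models and 3, 1, 4 and 4 of 4 root cap models. Of all models 46.4%, 43.4%, 58% and 55.2% were higher. The part of the markers in the assimilation values was not tested.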

How the data were processed

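The authors deposited 1 log2 expression value per transcript model and array for 22 arrays, by RMA according to the submitters' processing notes, with its settings and version not given in the sources used here. The NimbleGen arrays were designed on TAIR10, and per the labels replicate 3 of atscl26 epidermis KCl and of Col0 cortex KNO3 was removed by the submitters for low quality. A second deposited table of log2 averages per group entered no test.

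The values were used as deposited. The linear model, fitted with limma 3.58.1 (R 4.3.3), had a mean for each of the 8 groups over 22 arrays and 31524 transcript models, with 14 residual and 17.7 total degrees of freedom. Each of 18 comparisons was adjusted by the Benjamini-Hochberg method, with an adjusted p under 0.05 as the threshold. The number of arrays limits the precision. Names came from a TAIR10.1 gene table that held 26555 of 27143 loci. It names HRS1, and the HHO names follow the usual names of these loci. Named genes are the 8 family models, SCL26, the 3 models of other loci with the highest r to each, and, of 5 pathway lists, up to 2 models with the smallest p in the average nitrate effect. The members and lists were chosen with earlier results of these data known. NIA2 and the other list genes are background to the family. Scripts were tested on simulated data.

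Same-numbered replicates did not deviate together more than others. The correlation of their deviations from the group means was -0.58 to 0.35 over 71 pairs (median -0.008), and 19 were over 0.1. Over 140 pairs with different numbers it was -0.43 to 0.58 (median 0.004), and 40 were over 0.1. For this reason no pairing was used. Alternatives were quantile normalization, leaving out dim models (means under the 0.25 quantile, HHO4 among them), array weights, a trended robust prior, the replicate number as a block, each array left out in turn, and leaving out the 4 low-correlation arrays (median correlation under 0.85) or the 8 with a marker score nearer the other label. No sequence of a family gene was used here.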

Additional observations from a re-analysis of the deposited data

How the results depend on the processing

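The count of family models past the threshold was 0 in all 18 comparisons under every alternative run, and the smallest adjusted p of a member under any of them was 0.105 (limma), for HHO6 between genotypes in cortex KNO3 without Col0 cortex KNO3 replicate 2, at -4.17. Counts over all models moved far more, from 0 or 1 per comparison with all arrays to at most 2 after quantile normalization, 44 without the 4 low-correlation arrays, 1049 without the 8 arrays nearer the other cell type, 3486 with array weights (whose estimation stopped before it had converged) and 884 with 1 array left out. That last count is the nitrate effect in Col0 cortex without Col0 cortex KNO3 replicate 2, which leaves the low-correlation replicate 1 alone in its group. Leaving out the 4 or the 8 arrays leaves a lone array in 1 and 4 groups, which is then assumed to vary like the other groups. The 59 member values given under an alternative had 295 further values under the alternatives that can change a log2 difference, outside the omission of single arrays, and 63 of these had the opposite sign. Leaving out dim models and the trended robust prior change the errors and p but cannot change a log2 difference. None of the 63 had an adjusted p under 0.05 (limma). The cause of each change was not tested.

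With array weights, 15 values had the opposite sign. HRS1 was 0.26, HHO1 -0.30, HHO3 -0.080, HHO4 0.26 and HHO6 0.069 in the nitrate effect in Col0 epidermis. HHO5 model 2 was -0.0068 in the nitrate effect in atscl26 epidermis. HHO1 was -0.39, HHO2 -0.21, HHO5 model 1 0.98 and HHO5 model 2 0.83 in the nitrate effect in atscl26 cortex. HHO5 model 1 was 0.015 and HHO5 model 2 0.22 in the average nitrate effect. HHO3 was -0.033 in the average genotype effect. HHO1 was 0.18 and HHO4 -0.12 in the average cell type effect.

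After quantile normalization, 7 values had the opposite sign. HHO1 was -0.17 and HHO6 0.13 in the nitrate effect in Col0 epidermis. HHO2 was -0.015 and HHO4 0.053 in the nitrate effect in atscl26 epidermis. HHO5 model 2 was 0.028 in the nitrate effect in atscl26 cortex. HHO4 was -0.080 in the average nitrate effect. HHO1 was -0.0045 in the average genotype effect.

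With the replicate block, 3 values had the opposite sign. HHO2 was -0.12, HHO4 0.11 and HHO6 0.075 in the nitrate effect in atscl26 epidermis.

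Without the 4 low-correlation arrays, 21 values had the opposite sign. HRS1 was 0.052, HHO1 -0.37 and HHO4 0.20 in the nitrate effect in Col0 epidermis. HHO3 was 0.52, HHO4 -0.20, HHO5 model 2 -0.072 and HHO6 -1.42 in the nitrate effect in Col0 cortex. HHO1 was -0.40, HHO4 -0.091, HHO5 model 1 0.25 and HHO5 model 2 0.0013 in the nitrate effect in atscl26 cortex. HHO3 was 0.024 and HHO4 -0.035 in the average nitrate effect. HHO1 was -0.34, HHO3 -0.34, HHO4 0.085 and HHO6 0.19 in the average genotype effect. HHO1 was 0.074, HHO2 0.15 and HHO6 0.29 in the average cell type effect. HHO6 was 0.82 in the genotype effect in cortex KNO3.

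Without the 8 arrays nearer the other cell type, 17 values had the opposite sign. HRS1 was 0.17, HHO1 -0.36, HHO3 -0.36, HHO4 0.43 and HHO5 model 2 0.18 in the nitrate effect in Col0 epidermis. HHO3 was 0.52, HHO4 -0.20, HHO5 model 2 -0.072 and HHO6 -1.42 in the nitrate effect in Col0 cortex. HHO2 was -0.76 and HHO4 0.11 in the nitrate effect in atscl26 epidermis. HRS1 was -0.30 in the average nitrate effect. HHO1 was -0.21, HHO3 -0.54 and HHO4 0.35 in the average genotype effect. HHO4 was -0.12 and HHO6 0.47 in the average cell type effect.

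Leaving out 1 array at a time, 82 of 720 values had the opposite sign, in 38 results. The lowest and highest value of each is given. The nitrate effect in Col0 epidermis ranged from -0.63 to 0.20 in HRS1, -0.49 to 0.35 in HHO1, -0.69 to 0.27 in HHO2, -0.15 to 1.23 in HHO3, -1.16 to 0.38 in HHO4 and -0.65 to 0.44 in HHO6. The nitrate effect in Col0 cortex ranged from -0.43 to 0.13 in HRS1, -1.75 to 0.52 in HHO3, -0.20 to 1.28 in HHO4, -0.16 to 0.55 in HHO5 model 1, -0.072 to 1.12 in HHO5 model 2 and -1.42 to 2.81 in HHO6. The nitrate effect in atscl26 epidermis ranged from -0.36 to 2.56 in HRS1, -0.84 to 0.40 in HHO1, -0.38 to 0.39 in HHO2, -0.22 to 0.12 in HHO4, -0.74 to 0.29 in HHO5 model 1, -0.49 to 0.54 in HHO5 model 2 and -1.12 to 0.97 in HHO6. The nitrate effect in atscl26 cortex ranged from -0.40 to 0.70 in HHO1, -0.19 to 1.58 in HHO2, -0.091 to 0.41 in HHO4, -1.10 to 0.25 in HHO5 model 1 and -0.54 to 0.45 in HHO5 model 2. The average nitrate effect ranged from -0.33 to 0.40 in HRS1, -0.48 to 0.087 in HHO3, -0.17 to 0.27 in HHO4 and -0.79 to 0.26 in HHO6. The average genotype effect ranged from -0.61 to 0.12 in HRS1, -0.051 to 0.30 in HHO1, -0.11 to 0.46 in HHO3 and -0.83 to 0.23 in HHO6. The average cell type effect ranged from -0.21 to 0.14 in HHO1, -0.41 to 0.028 in HHO2, -0.14 to 0.30 in HHO4 and -0.81 to 0.25 in HHO6. The genotype effect in cortex KNO3 ranged from -4.17 to 0.056 in HHO6. The cell type effect in atscl26 KCl ranged from -2.87 to 0.057 in HRS1.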

Other observations

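The authors' deposited table of group averages equals the mean of the group's arrays in 6 of 8 groups. Its Col0 epidermis KCl average equals the mean of replicates 1 and 3 of that group and replicate 1 of atscl26 epidermis KNO3, and its Col0 cortex KNO3 average equals the mean of both arrays of that group and replicate 1 of atscl26 cortex KCl. For the family this gives, in Col0 epidermis KCl, an average in the authors' deposited table of 12.80 for HHO3 where the 3 arrays have a mean of 12.06, of 6.42 for HHO4 where the mean is 7.35, and of 9.85 for HHO5 model 2 where the mean is 10.45. In Col0 cortex KNO3 the largest gap was that of HHO1, 12.33 in the authors' deposited table against a mean of 12.03.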
